A study of Homo sapiens with 5 samples.

Results

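The cytoplasmic m6A readers YTHDF1, YTHDF2, YTHDF3 and YTHDC2, the IGF2BP proteins IGF2BP1, IGF2BP2 and IGF2BP3, and the RNA-binding protein ELAVL1 were followed in RH4 cells after circVAMP3 knock-down. The members were picked by gene symbol, and all 8 of the 8 symbols had a row in the deposited expression table, which holds 13822 genes. RH4 is an established cell line of alveolar rhabdomyosarcoma, a tumour with features of skeletal muscle. The control group received the siRNA si-SCR (n = 3), and the knock-down group received si-circVAMP3 (n = 2), an siRNA aimed at the back-splicing junction of circVAMP3, the circular RNA made from the VAMP3 gene. Both siRNAs were used at 30 nM. RH4 cells stayed in culture for 24 h up to a change of medium and for 24 h more up to harvest. Whole-cell RNA was sequenced as stranded polyA libraries, so circVAMP3, which has no poly(A) tail, was not measured. The samples come from 1 cell line and 1 siRNA per group, and in these bulk libraries fewer cells of a kind and less RNA per cell cannot be told apart.

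N6-methyladenosine (m6A) is a methyl mark placed on adenosines of mRNA by a nuclear writer complex and removed by demethylases. The YTH domain of the YTHDF proteins and of YTHDC2 binds the mark directly; the YTHDF proteins are best known for bringing marked mRNAs to decay, and YTHDC2 is an RNA helicase needed in germ cells. IGF2BP proteins are oncofetal RNA-binding proteins with KH domains that stabilise their client mRNAs and have been described as m6A readers, while ELAVL1 (HuR) binds AU-rich and U-rich stretches and protects mRNAs from decay.

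The designed siRNA is shown with a stretch of the IGF2BP2 3′ UTR that holds letters complementary to the seed of 1 of its strands, because no other member had those letters in its 3′ UTR. In the si-circVAMP3 strand given by the study, the first 8 bases are the end of VAMP3 exon 4, the 11 capitals are the start of exon 3, and the last 2 bases are an overhang. In the strand complementary to the junction, the capitals mark the seed, the short stretch near the 5′ end through which a loaded strand first pairs with a target. In the IGF2BP2 3′ UTR, the capitals mark the 7-base complement of that seed followed by an A.
si-circVAMP3 as listed: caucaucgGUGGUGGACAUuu
strand complementary to the junction: aUGUCCACcaccgaugaug
IGF2BP2 3′ UTR: tactggtttatGTGGACAA
Exons 3 and 4 of VAMP3 span chr1:7777160-7778169 (GRCh38, plus strand) and together make a circle of 211 nucleotides. The IGF2BP2 stretch lies at chr3:185643859-185643877 (GRCh38, minus strand), starting its capitals 1665 bases after the stop codon in a 3′ UTR of 2401 bases. Of the 19 bases of the strand complementary to the junction, 8 are complementary to it. Which strand of the siRNA was loaded is not given in the sources used here.

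Levels are given as FPKM, fragments scaled to gene length in kilobases and to an effective library size, as the authors calculated them. That size was 0.999 to 1.01 times the counted reads of a library. Whole reads could be recovered from the deposited values, and the libraries held 26332967, 24946509 and 24835912 counted reads in si-SCR replicates 1 to 3, and 18552661 and 28705009 in si-circVAMP3 replicates 1 and 2. The median gene differed from its group mates by 0.08, 0.07 and 0.08 on the log2 scale in the si-SCR libraries and by 0.06 in both si-circVAMP3 libraries, and from the other group by 0.14 to 0.16. Genes with a mean of at least 0.5 FPKM were tested, which kept 12245 genes and all 8 members. Fold changes were fitted as log2(FPKM + 1), si-circVAMP3 minus si-SCR, which understates the change of low genes, and a gene was called higher or lower when its adjusted p was under 0.05 (limma, 2-sided, Benjamini-Hochberg over all genes tested). These p-values measure the spread between these 5 libraries alone; they are described by the study as biological replicates, and since 3 against 2 libraries allow 10 arrangements, an exact permutation test of a single gene could not go below 0.1.

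VAMP3, the host gene of the targeted circle, was read first, since circVAMP3 itself was not measured. Of all genes tested, 15.8% were called lower, so a lower VAMP3 mRNA does not by itself settle the labels. The VAMP3 mRNA was at 36.4, 35.4 and 37.4 FPKM in the si-SCR libraries and at 29.4 and 30.2 FPKM in the si-circVAMP3 libraries. All si-SCR values lay above both si-circVAMP3 values, and the linear mRNA was 1.22-fold lower after si-circVAMP3 (log2 fold change -0.28, SE 0.0426; adjusted p = 0.00492, limma with Benjamini-Hochberg adjustment). The seed complement falls within the exon 3 bases of the siRNA, so the linear VAMP3 mRNA also holds it, with 2 copies outside the 3′ UTR and 0 within it. Without si-circVAMP3 replicate 1 the limma adjusted p of VAMP3 was 0.0505, and over all 13 alternatives it lay between 0.00285 and 0.0505.

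Of the 8 members, 4 were called, against 30.3% of all genes tested. IGF2BP2 and IGF2BP3 were lower, YTHDF1 and YTHDF2 were higher, and YTHDF3, YTHDC2, IGF2BP1 and ELAVL1 did not pass the threshold. Over all genes tested, 14.6% were called higher and 15.8% were called lower. The values of the groups did not overlap for 7 of the 8 members, against 58.5% of all genes tested, with ELAVL1 as the exception. The middle of all genes was at a log2 fold change of 0.01, the 5th percentile at -0.41 and the 95th percentile at 0.34; among the members, IGF2BP2 alone lay outside that range. Without si-circVAMP3 replicate 1 the calls came to 10.6% of all genes tested and without replicate 2 to 10.2%, and in both cases 1 of the 8 members was called, IGF2BP2.

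**Figure D1:**
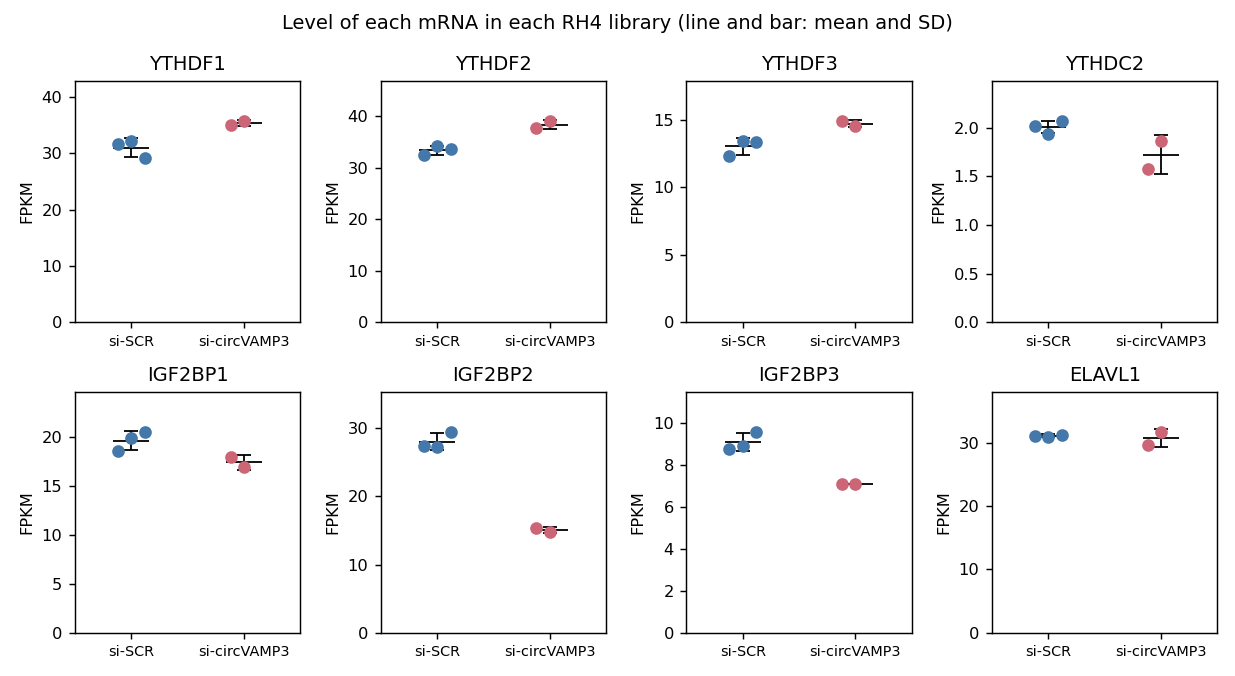
FPKM (vertical axes, from 0) of each of the 8 mRNAs in the 3 si-SCR libraries (blue) and the 2 si-circVAMP3 libraries (red), with each point 1 library and the black line and bar the mean and SD. IGF2BP2 drops from between 27.2 and 29.4 FPKM to 14.7 and 15.4 FPKM, while the other panels show smaller gaps and the ELAVL1 points overlap.

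IGF2BP2, the IGF2BP paralogue that persists in adult tissues and is also linked to metabolic disease, had the largest change of the 8 members. Its gene (ENSG00000073792) lies at chr3:185643130-185825042 on the minus strand of GRCh38. The mRNA was at 27.4, 27.2 and 29.4 FPKM in si-SCR replicates 1 to 3, and at 15.4 and 14.7 FPKM in si-circVAMP3 replicates 1 and 2. Each si-SCR library was thus far above each si-circVAMP3 library, with a gap between the groups many times the spread within either. The group means were 28.0 ± 1.23 FPKM (SD, n = 3) and 15.1 ± 0.505 FPKM (SD, n = 2), a 1.86-fold lower level after circVAMP3 knock-down. On the log2 scale the change was -0.85 (SE 0.0514, 95% CI -0.98 to -0.73; adjusted p = 2.44e-04, limma with Benjamini-Hochberg adjustment). By log2(FPKM + 1), 67 of the 12245 genes tested, IGF2BP2 included, had a fold change as low, which is 0.547% of them. That scale understates the change of low genes, and the rank was not taken on another scale. The call held in all 13 alternatives, including each library left out in turn, with log2 fold changes from -0.90 to -0.82 and limma adjusted p from 1.43e-05 to 0.00801.

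IGF2BP3, an oncofetal paralogue found in many tumours (ENSG00000136231, chr7:23310209-23470491, minus strand), was also lower. It was read at 8.76, 8.89 and 9.57 FPKM with si-SCR and at 7.09 and 7.10 FPKM with si-circVAMP3. The si-circVAMP3 values were nearly equal and both below the lowest si-SCR value. Its mean went from 9.07 ± 0.436 FPKM (SD, n = 3) to 7.09 ± 0.00619 FPKM (SD, n = 2), 1.28-fold lower, with a log2 fold change of -0.32 (SE 0.0547, 95% CI -0.45 to -0.18; adjusted p = 0.00758, limma with Benjamini-Hochberg adjustment). Its call rested on having both si-circVAMP3 libraries. With replicate 1 left out the limma adjusted p was 0.0596 and with replicate 2 left out it was 0.0613, against a range of 0.00215 to 0.0613 over 13 alternatives, and the log2 fold change stayed between -0.35 and -0.28.

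IGF2BP1, first known as the zipcode-binding protein that localises beta-actin mRNA (ENSG00000159217, chr17:48997385-49056145, plus strand), was at 18.5, 19.8 and 20.5 FPKM in the si-SCR libraries and at 18.0 and 16.9 FPKM in the si-circVAMP3 libraries. The groups did not overlap, but si-SCR replicate 1 and si-circVAMP3 replicate 1 were close to each other. The log2 fold change of -0.16 (SE 0.0570, 95% CI -0.30 to -0.03) did not pass the threshold (adjusted p = 0.0723, limma with Benjamini-Hochberg adjustment). It passed without si-SCR replicate 1 (limma adjusted p = 0.0440) and in a voom fit of the recovered reads, an alternative chosen after seeing the data (limma adjusted p = 0.0402), and the 13 alternatives ranged up to 0.332.

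Within a library, the ratio of 1 family member to another does not depend on the scaling between libraries. IGF2BP2 made up 50.1%, 48.6% and 49.5% of the summed IGF2BP FPKM in si-SCR replicates 1 to 3, and 38.1% and 38.0% in si-circVAMP3 replicates 1 and 2. Its share was therefore lower in either si-circVAMP3 library than in any si-SCR library, and the mean share differed by -11.4 percentage points. IGF2BP1 took 33.9%, 35.5% and 34.5% of the sum with si-SCR and 44.4% and 43.6% with si-circVAMP3. IGF2BP1 thereby took the place of IGF2BP2 as the most abundant IGF2BP mRNA per length, and the ratio of IGF2BP2 to IGF2BP1 went from 1.48, 1.37 and 1.44 to 0.858 and 0.871. IGF2BP3 took 16.0%, 15.9% and 16.1% with si-SCR and 17.5% and 18.3% with si-circVAMP3, so its share was higher although its level was lower. The difference in its mean share was 1.93 points, and it was 2.35 points without si-circVAMP3 replicate 1 and 1.51 points without replicate 2. The summed IGF2BP level was 54.7, 55.9 and 59.5 FPKM in the si-SCR libraries against 40.5 and 38.7 FPKM in the si-circVAMP3 libraries.

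**Figure D2:**
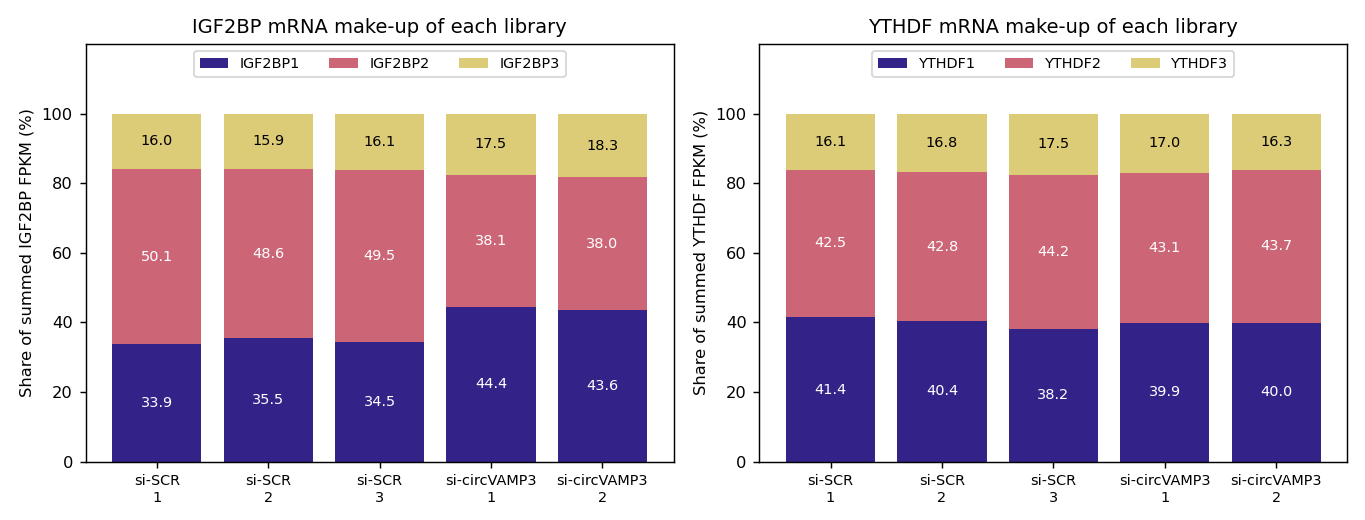
Share of each gene in the summed FPKM of its family (vertical axes, percent; left IGF2BP, right YTHDF), with 1 stacked bar for each of the 5 libraries. The IGF2BP2 segment shrinks from between 48.6% and 50.1% to 38.0% and 38.1%, whereas the YTHDF segments keep nearly the same height in all 5 libraries.

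YTHDF2, the YTHDF protein that recruits the CCR4-NOT deadenylase to m6A-marked mRNAs (ENSG00000198492, chr1:28736621-28769775, plus strand), was at 32.4, 34.2 and 33.7 FPKM with si-SCR and at 37.8 and 39.1 FPKM with si-circVAMP3. Both si-circVAMP3 values were above all si-SCR values. Its mean rose from 33.4 ± 0.896 FPKM (SD, n = 3) to 38.4 ± 0.908 FPKM (SD, n = 2), a ratio of 1.15 and a log2 fold change of 0.19 (SE 0.0427, 95% CI 0.09 to 0.30; adjusted p = 0.0166, limma with Benjamini-Hochberg adjustment). The call was lost without si-circVAMP3 replicate 1 (limma adjusted p = 0.0718) and without replicate 2 (0.118), within a range of 0.0107 to 0.118 over 13 alternatives.

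YTHDF1, a paralogue that has also been tied to translation of marked mRNAs (ENSG00000149658, chr20:63195429-63216139, minus strand), gave 31.6, 32.3 and 29.1 FPKM in the si-SCR libraries and 35.0 and 35.7 FPKM in the si-circVAMP3 libraries. The groups were apart, with si-SCR replicate 3 the lowest of the 5. The means were 31.0 ± 1.67 FPKM (SD, n = 3) and 35.4 ± 0.498 FPKM (SD, n = 2), a ratio of 1.14, and the log2 fold change of 0.19 (SE 0.0533, 95% CI 0.06 to 0.31) passed the threshold narrowly (adjusted p = 0.0402, limma with Benjamini-Hochberg adjustment). It did not pass without si-SCR replicate 1 (limma adjusted p = 0.0602), si-SCR replicate 2 (0.0607), si-circVAMP3 replicate 1 (0.145) or si-circVAMP3 replicate 2 (0.191), nor without the mean-variance trend (0.0611), and the range over 13 alternatives was 0.0280 to 0.191.

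YTHDF3, the least abundant YTHDF paralogue here, was at 12.3, 13.4 and 13.4 FPKM with si-SCR and at 14.9 and 14.5 FPKM with si-circVAMP3. Its groups did not overlap either, and si-SCR replicate 1 was the lowest library. The log2 fold change of 0.17 (SE 0.0537, 95% CI 0.04 to 0.29) was close in size to those of YTHDF1 and YTHDF2 but did not pass the threshold (adjusted p = 0.0579, limma with Benjamini-Hochberg adjustment). It passed without si-SCR replicate 3 (limma adjusted p = 0.0438) and in the voom fit (0.0396), with a highest value of 0.243 over 13 alternatives. That YTHDF1 and YTHDF2 passed and YTHDF3 did not is no sign of a difference between them, which was not tested.

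The make-up of the YTHDF family was nearly the same in both groups. YTHDF1 held 40.0% of the summed YTHDF FPKM on average in either group, YTHDF2 held 43.2% with si-SCR and 43.4% with si-circVAMP3, and YTHDF3 held 16.8% and 16.6%. Each of these differences was smaller than the spread among the si-SCR libraries. With each library left out in turn, the difference in mean share ran from -0.97 to 0.65 points for YTHDF1. It ran from -0.10 to 0.77 points for YTHDF2 and from -0.54 to 0.20 points for YTHDF3. The summed level was 76.4, 79.8 and 76.2 FPKM with si-SCR and 87.7 and 89.3 FPKM with si-circVAMP3. Set against each other, the summed IGF2BP level was 0.717, 0.701 and 0.781 of the summed YTHDF level in si-SCR replicates 1 to 3 and 0.462 and 0.433 of it in the si-circVAMP3 libraries. No direction of a YTHDF or IGF2BP gene turned under any of the 13 alternatives, including both other scalings between libraries.

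YTHDC2 (ENSG00000047188, chr5:113513694-113595285, plus strand) had the lowest level of the 8 members, with 2.01, 1.94 and 2.07 FPKM in the si-SCR libraries and 1.58 and 1.86 FPKM in the si-circVAMP3 libraries. Both si-circVAMP3 values were below the si-SCR values, but they differed from each other by more than replicate 2 differed from the nearest si-SCR library. The log2 fold change of -0.15 had a 95% CI of -0.31 to 0.02 and did not pass the threshold (adjusted p = 0.154, limma with Benjamini-Hochberg adjustment), as in each of the 13 alternatives. Its size moved with single libraries, to -0.07 without si-circVAMP3 replicate 1 and -0.22 without replicate 2, and with the pseudocount, to -0.22 at 0.01. Its values rest on 523 to 580 reads in the si-SCR libraries and on 316 and 580 reads in the si-circVAMP3 libraries, the fewest of any member.

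ELAVL1 (ENSG00000066044, chr19:7958573-8005659, minus strand) had the fold change nearest to 0, with levels at 31.1, 30.8 and 31.3 FPKM with si-SCR and 29.7 and 31.7 FPKM with si-circVAMP3. The si-SCR values lay between the si-circVAMP3 values, so the groups overlapped. The log2 fold change was -0.02 (SE 0.0438, 95% CI -0.12 to 0.09; adjusted p = 0.779, limma with Benjamini-Hochberg adjustment), and without si-circVAMP3 replicate 1 it was 0.03. With 3828 to 6355 reads per library, ELAVL1 was the most deeply read of the 8 members.

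**Figure D3:**
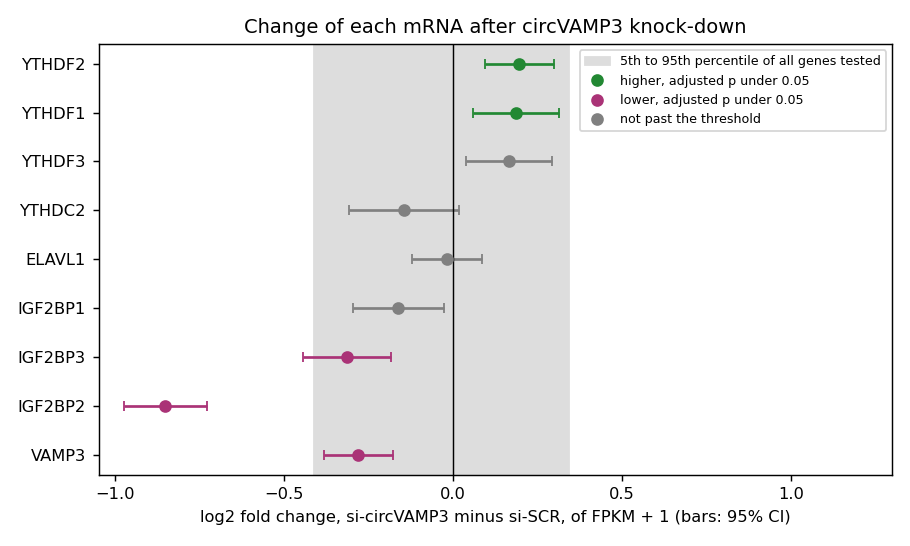
Log2 fold change of FPKM + 1, si-circVAMP3 minus si-SCR (horizontal axis), of the 8 mRNAs and of VAMP3, with 95% CI bars, coloured by whether the limma adjusted p was under 0.05. The grey band runs from the 5th percentile (-0.41) to the 95th percentile (0.34) of all genes tested, and IGF2BP2 at -0.85 is the only point outside it.

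Ordered by mean FPKM per gene, the si-SCR libraries had YTHDF2 first, then ELAVL1, YTHDF1, IGF2BP2, IGF2BP1, YTHDF3, IGF2BP3 and YTHDC2. The library values of ELAVL1 and YTHDF1 overlapped, as did those of YTHDF1 and IGF2BP2, and the other neighbours did not. These levels ran from percentile 90.5 of all genes in the table for YTHDF2 to percentile 31.3 for YTHDC2. In the si-circVAMP3 libraries the order was YTHDF2, YTHDF1, ELAVL1, IGF2BP1, IGF2BP2, YTHDF3, IGF2BP3 and YTHDC2, and IGF2BP2 and YTHDF3 were the only neighbours that overlapped. IGF2BP2 went from percentile 88.3 to percentile 78.2, the largest shift in standing of the 8. The gene length behind the FPKM was that of all annotated exons joined for 7 members, but for IGF2BP2 it was 0.888 of that length in a later annotation, which touches its level against other genes and not its fold change.

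The 3 genes most like IGF2BP2 in profile over the 5 libraries were found by the distance between centred log2(FPKM + 1) values among 6754 genes with a mean of at least 5 FPKM. RARS1, the cytosolic arginyl-tRNA synthetase, was at a distance of 0.0341 and had a log2 fold change of -0.86. ARHGEF6, a Rac and Cdc42 exchange factor, was at 0.0376 with a log2 fold change of -0.85, and FAM83D, a spindle protein, was at 0.0479 with -0.82. The 3′ UTRs of RARS1 and FAM83D each held 1 copy of the 7-base complement of the seed, and that of ARHGEF6 held 0.

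IGF2BP2 was the only member with this match in its 3′ UTR. The letters searched were GTGGACA, and GTGGACAA for the 8-base form, on the sense strand of the annotated canonical transcript. The 3′ UTR of IGF2BP2 held 1 copy, of the 8-base form, and the 3′ UTRs of the other 7 members held 0. Outside the 3′ UTR, YTHDF1, YTHDF2, YTHDF3, YTHDC2 and IGF2BP1 each held 1 copy of the 7 letters, and IGF2BP3 and ELAVL1 held 0. For the strand of the siRNA given by the study, the seed complement is CGATGAT, and no member had it in the 3′ UTR.

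Among 10947 tested genes with a coding canonical transcript, 282 (2.58%) held the 8-base form in the 3′ UTR and 975 (8.91%) held the 7 letters without the final A. Of the 282 genes, 125 (44.3%) were called lower and 13 (4.61%) higher, with a median log2 fold change of -0.17, which was -0.25 at a pseudocount of 0.01 and -0.26 by voom. Genes with the 7 letters alone were called lower in 30.7% of cases and higher in 8.41%, with a median of -0.08. Of the 9690 genes with no match in the 3′ UTR, 13.8% were called lower and 16.8% higher, with a median of 0.02. Those among them with the 7 letters elsewhere in the transcript, as in YTHDF1, YTHDF2, YTHDF3, YTHDC2 and IGF2BP1, were 2156, of which 23.6% were lower and 9.79% higher. The 7534 with the letters nowhere, as in IGF2BP3 and ELAVL1, were lower in 11.0% of cases and higher in 18.8%. These classes also differ in length, since the median 3′ UTR was 3245 bases with the 8-base form, 2843 bases with the 7 letters alone and 1234 bases with none. For the 2156 and the 7534 genes it was 1280 and 1224 bases. The lengths of the rest of their transcripts, where those matches lie, were not compared. Of the 198 genes with CGATGAT, whose median 3′ UTR was 3615 bases, 20.2% were called lower and 12.1% higher, with a median of -0.02, and 0 had a fold change as low as that of IGF2BP2. These 198 genes were not kept apart from the classes above, and how many of them also hold GTGGACA was not counted. Without si-circVAMP3 replicate 1, 25.5% of genes with the 8-base form, 16.4% with the 7 letters alone and 5.25% with no match were called lower. Without si-circVAMP3 replicate 2 these shares were 23.8%, 14.9% and 5.02%, and without si-SCR replicate 2 they were 33.3%, 22.5% and 8.33%. A match is a run of letters and not a site shown to be used, and its part in the level of IGF2BP2 or of any other gene was not tested.

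**Figure D4:**
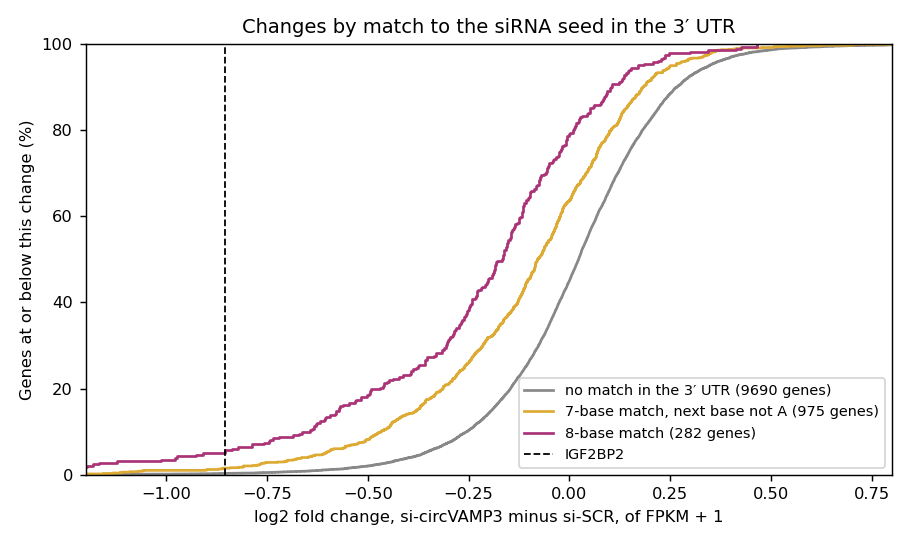
Cumulative share of genes (vertical axis, percent) at or below each log2 fold change of FPKM + 1 (horizontal axis), for genes with the 8-base match to the siRNA seed in the 3′ UTR, with the 7-base match alone and with none. The curve of the 282 genes with the 8-base match lies to the left, and the dashed line marks IGF2BP2 at -0.85, a level reached by 15 of these 282 genes and by 32 of the 9690 genes with no match.

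The nuclear side of the m6A pathway was read from 12 genes for writers, erasers and the nuclear reader YTHDC1, all of them tested. Beside the counts of this and each later list stand the shares over all genes tested. These were 14.6% called higher, 15.8% called lower and 30.3% in either direction. Without si-SCR replicate 1, 2 or 3, the share in either direction was 25.1%, 18% and 32.8%. No list was tested as a set. WTAP, RBM15 and METTL16 were higher, FTO and METTL14 were lower, and 7 did not pass. The list median was 0.02, and it ran from -0.00 without si-circVAMP3 replicate 1 to 0.05 without si-SCR replicate 2. FTO, an m6A demethylase, fell from 3.24, 3.56 and 3.88 FPKM to 2.27 and 2.02 FPKM, a log2 fold change of -0.53. The FTO groups were well apart, and its call held in all 13 alternatives. METTL14, the partner of the catalytic writer METTL3, was at -0.23 on the log2 scale, and WTAP, the adaptor of the complex and the most abundant of the list by mean FPKM over the 5 libraries (the measure used for every list), was at 0.24, with RBM15 at 0.19 and METTL16, a separate methyltransferase, at 0.17. FTO alone of the 12 was called when si-SCR replicate 2 or either si-circVAMP3 library was left out, and 2 were called without si-SCR replicate 1.

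YTHDF2 acts through the CCR4-NOT deadenylase, and 11 of its subunits were tested. CNOT9, CNOT10 and CNOT6 were higher, 4 were lower and 4 did not pass, with a median of -0.02 that ran from -0.05 without si-circVAMP3 replicate 2 to 0.04 without replicate 1. CNOT9, a subunit that docks RNA-binding proteins, went from 31.3, 31.2 and 33.8 FPKM to 44.6 and 44.2 FPKM, a log2 fold change of 0.46 called in all 13 alternatives. CNOT1, the scaffold that YTHDF2 contacts and the most abundant of the list by its mean over all 5 libraries, went from 39.1, 41.0 and 43.7 FPKM to 35.3 and 32.4 FPKM (-0.28). The groups did not overlap for CNOT1 or CNOT9, as for 58.5% of all genes tested. Their changes ran in opposite directions, so that CNOT1 was above CNOT9 in each si-SCR library but below it in each si-circVAMP3 library. The others named by size were CNOT10 at 0.26, CNOT6, a catalytic deadenylase, at 0.23, CNOT2 at -0.27 and CNOT11 at -0.23. Without si-SCR replicate 2, 4 of the 11 were called, and with either si-circVAMP3 library left out 1 was called, CNOT9.

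The decapping, decay and partner genes of YTHDF2 and YTHDC2 were 13, of which MEIOC, a germ cell partner of YTHDC2, had no row and 12 were tested. POP1 was higher, 3 were lower and 8 did not pass, with a median of 0.06 that ran from 0.03 without si-SCR replicate 3 to 0.10 without si-circVAMP3 replicate 2. RIDA, which bridges YTHDF2 to the RNase P and MRP endonuclease, fell from 20.4, 19.6 and 22.1 FPKM to 15.2 and 15.2 FPKM, a log2 fold change of -0.42 that was called in all 13 alternatives. XRN1, the cytoplasmic 5′ to 3′ exonuclease that YTHDC2 also binds, was at -0.26, the decapping enzyme DCP2 at -0.19, and POP1, a subunit of RNase P and MRP, at 0.20. The most abundant, LSM14A, was at -0.03 and was not called. With si-SCR replicate 3 left out, 3 genes of the list were higher and 2 were lower. Left without si-SCR replicate 1 or 2 the list had 2 calls, and with either si-circVAMP3 library left out it had 1, RIDA.

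Of 11 other proteins that have been linked to m6A, whether or not they bind the mark, 4 were higher, 1 was lower and 6 did not pass. The median was 0.12 with all libraries and 0.07 without si-SCR replicate 3. G3BP2, a stress granule protein, fell from 65.5, 63.0 and 65.7 FPKM to 44.2 and 43.0 FPKM, a log2 fold change of -0.56. FXR2, a relative of the fragile X protein, rose from 13.1, 12.4 and 12.1 FPKM to 17.1 and 16.3 FPKM, a log2 fold change of 0.39. These and LRPPRC, a mitochondrial RNA-binding protein at 0.27, were called in all 13 alternatives. SND1, a Tudor domain nuclease, was at 0.19, and HNRNPA2B1, the most abundant of the list, was at -0.02 and was not called. Without si-SCR replicate 2 or either si-circVAMP3 library, 3 of the 11 were called.

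Among 9 poly(A)-binding and stress granule proteins, 2 were higher, 2 were lower and 5 did not pass, with a median of -0.09. PABPC1, the main cytoplasmic poly(A)-binding protein and the most abundant, was at 0.16 on the log2 scale and its relative PABPC4 at -0.15. EIF4ENIF1, a 4E-binding repressor, was at 0.22 and CAPRIN1, a partner of G3BP proteins, at -0.25. The list had 1 call without si-SCR replicate 1, si-SCR replicate 2 or si-circVAMP3 replicate 1, and 0 calls by limma without si-circVAMP3 replicate 2, where 5 genes had an unadjusted p under 0.05.

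ELAVL1 stands beside other proteins of AU-rich elements, 9 of which were tested of 11 listed, since ELAVL3 and ELAVL4 had no row. By limma 0 were higher (1 at an unadjusted p under 0.05, 0 by voom), 1 was lower and 8 did not pass, with a median of 0.07 that was 0.05 without si-SCR replicate 1 and 0.02 without si-SCR replicate 3. ELAVL2, a neuronal paralogue of ELAVL1, went from 6.64, 5.81 and 6.01 FPKM to 4.88 and 4.95 FPKM, a log2 fold change of -0.27, and did not pass when either si-circVAMP3 library was left out. HNRNPD (AUF1), the most abundant, was at 0.01 and was not called.

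The mRNAs known as clients of IGF2BP proteins were 16, of which CD44 and LIN28B had no row, H19 was under the filter and 13 were tested. MARCKSL1 was higher, 4 were lower and 8 did not pass, with a median of -0.05 against 0.01 over all genes. That median was -0.10 without si-SCR replicate 3, -0.09 without si-circVAMP3 replicate 2 and -0.02 without si-circVAMP3 replicate 1. SRF, a transcription factor of actin genes, fell from 29.8, 30.2 and 29.0 FPKM to 18.9 and 17.5 FPKM, a log2 fold change of -0.68, and its 3′ UTR held 1 copy of the 7 letters GTGGACA. BTRC, a ubiquitin ligase subunit whose mRNA IGF2BP1 protects, went from 11.3, 10.9 and 11.3 FPKM to 8.29 and 7.16 FPKM, a log2 fold change of -0.48. Both genes kept clear gaps between the groups and were called in all 13 alternatives. HMGA2, a chromatin protein, was at -0.28 and MARCKSL1, an actin-binding protein, at 0.23, while ACTB, the most abundant, was at -0.15 and was not called (adjusted p = 0.0542, limma with Benjamini-Hochberg adjustment; 0.0245 to 0.247 over 13 alternatives, 3 of which called it). Calls numbered 3 without si-SCR replicate 2 or si-circVAMP3 replicate 2, and 2 without si-circVAMP3 replicate 1.

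Of 15 mRNAs known as ELAVL1 clients, FOS was under the filter and 14 were tested. As many were higher as lower, 4 each, and 6 did not pass, with a median of -0.00 that stayed between -0.01 and 0.01 with any 1 library left out. CDKN1A, the inhibitor of cyclin-dependent kinases known as p21, rose from 11.6, 11.1 and 9.77 FPKM to 17.7 and 16.7 FPKM, a log2 fold change of 0.63. HIF1A, the oxygen-regulated transcription factor, fell from 26.4, 27.3 and 27.2 FPKM to 15.8 and 16.3 FPKM, a log2 fold change of -0.71. The groups were free of overlap for CDKN1A and HIF1A, as for 58.5% of all genes tested. MYOD1 and MYOG are also among the RH4 markers. PTMA, prothymosin alpha and the most abundant, was at 0.41, MYOG, a muscle differentiation factor, at -0.76 and the cyclin CCNA2 at -0.27. CDKN1A, HIF1A, PTMA, MYOG and CCNA2 were each called in all 13 alternatives, and with either si-circVAMP3 library left out 5 of the 14 were called.

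**Figure D5:**
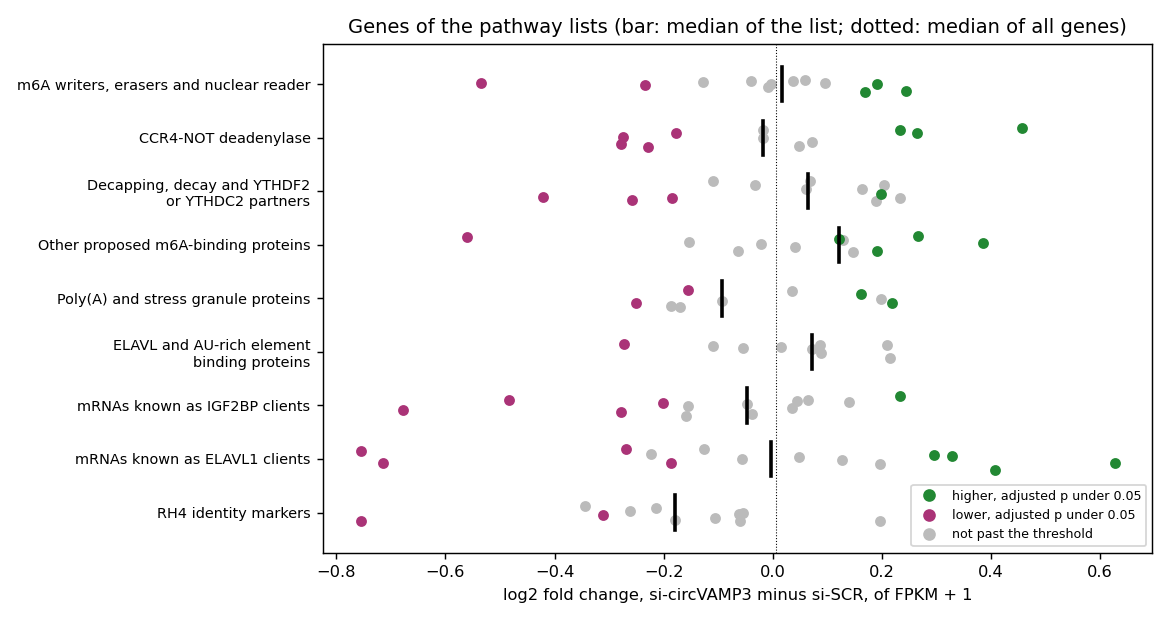
Log2 fold change of FPKM + 1, si-circVAMP3 minus si-SCR (horizontal axis), of each tested gene in 9 lists (rows), coloured by whether the limma adjusted p was under 0.05, with the list median as a black bar and the median of all genes as a dotted line. Most lists hold genes on both sides, and with all 5 libraries their medians lie between -0.18 for RH4 markers and 0.12 for other proposed m6A-binding proteins. That last row holds proteins linked to m6A, whether or not they bind the mark.

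The RH4 identity was checked with 11 markers of the muscle lineage and of fusion-positive rhabdomyosarcoma, all of which were present in every library. Their summed level was 1159, 1143 and 1007 FPKM in si-SCR replicates 1 to 3 and 947 and 954 FPKM in the si-circVAMP3 libraries, with DES, the muscle intermediate filament, as the most abundant. The sum was lower in both si-circVAMP3 libraries, and si-SCR replicate 3 stood below its group mates. By limma 0 of the 11 were called higher (0 at an unadjusted p under 0.05, 0 by voom) and 2 were called lower, MYOG at -0.76 and the acetylcholine receptor subunit CHRND at -0.31, with a list median of -0.18. MYOD1, a core marker, was not called, at 115, 105 and 84.3 FPKM with si-SCR and 106 and 127 FPKM with si-circVAMP3, which overlapped. Without si-SCR replicate 3, 5 of the 11 were lower and the median was -0.13, and without si-circVAMP3 replicate 2, 1 was lower and the median was -0.08. The part of these marker levels in the changes of IGF2BP2 and IGF2BP3 was not tested. Markers of epithelial, immune, adipocyte and germ cells had no row. The endothelial marker PECAM1 was at 0.0777 to 0.153 FPKM, and the summed fibroblast markers DCN and PDGFRA were at 1.37 to 1.66 FPKM, with LUM, CDH5 and VWF without a row.

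Some genes named from the lists held the seed complement in their own 3′ UTR. Among those called lower, METTL14 held the 8-base form, and SRF, G3BP2, CNOT1, DCP2 and CHRND held the 7 letters without the final A. LRPPRC, which was called higher, and HNRNPA2B1, which was not called, also held the 7 letters without the final A. Other genes called lower by name, among them FTO, RIDA, BTRC, HIF1A and MYOG, had no copy of GTGGACA in the 3′ UTR of the canonical transcript, and that of FTO held 1 copy of CGATGAT. Elsewhere in the transcript, FTO held 3 copies of GTGGACA, RIDA and MYOG held 1 each, and BTRC and HIF1A held 0.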

How the data were processed

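Polyadenylated RNA of 3 si-SCR and 2 si-circVAMP3 RH4 cultures was sequenced. Per the submitters' processing notes, bcl2fastq 2.20.0.422, Trimmomatic, STAR 2.5.2b on GRCh38, HTSeq and edgeR were used, and the authors deposited gene values as FPKM after removing low genes. All 13822 IDs were used, 13783 of which matched a symbol. Whole reads were recovered in 100.0% of rows from ratios between libraries (tolerance 1e-12), up to a factor common to a row that was set from annotated gene lengths and changed 342 rows; 68.8% of rows matched those lengths. The study's filter dropped genes under 1 CPM in 3 or more libraries, yet 624 rows were below it by the recovered reads, so it could not be matched. No pair of replicates was a duplicate by a chi-square of the recovered reads.

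limma 3.58.1 with a mean-variance trend was run in R 4.3.3 on log2(FPKM + 1) over all genes with a mean FPKM of at least 0.5. The study fitted counts; limma takes that place because the values are FPKM. Scripts were tested on simulated data. Alternatives were pseudocounts of 0.1 and 0.01, no filter, 2 rescalings, no trend, a replicate block, each library left out, a fold limit of 0.58 and, chosen after seeing the data, voom on recovered reads. The 13 alternatives given for single genes leave out the fold limit.

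The members and lists were chosen with earlier results of these data known. From each list, up to 3 called genes per direction with the largest fold change and the most abundant gene were named, and for the member with the largest change the 3 genes closest in profile; 1 gene that this rule takes is not reported here. The siRNA sequence came from the study's oligonucleotide list, and 3′ UTRs from GENCODE canonical transcripts on GRCh38. The seed search was chosen after seeing the data. Proteins and isoforms were not analysed here.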

Additional observations from a re-analysis of the deposited data

How the results depend on the processing

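IGF2BP2 was called in all 13 alternatives. Over all genes, 1783 were higher and 1932 lower. Leaving out each library in turn gave 489 to 1996 higher, 760 to 2024 lower and 1 to 5 called members against 10.2% to 32.8% of all genes, where a lone si-circVAMP3 library was assumed to vary like the si-SCR group. The lowest counts came without a si-circVAMP3 library, and 983 higher and 1225 lower came without si-SCR replicate 2. With a fold limit of 0.58, 91 genes were higher, 243 were lower and 1 member, IGF2BP2, was called. Under voom 6 members were called, against 33.6% of all genes. The IGF2BP3 share differed by 1.51 to 2.35 points with each library left out. Of the 35 called genes that the naming rule took from the lists, 13 were called in all 13 alternatives, which leave out the fold limit. Depth was least in si-circVAMP3 replicate 1 (18552661 reads), and its part in these shifts was not tested.

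Replicate numbers 1 and 2 showed no sign of pairing the libraries, with deviations from the group means that correlated across genes at -0.169 and -0.0369. The deviations of the si-circVAMP3 libraries mirror each other around their mean. These correlations are therefore not independent and cannot settle whether the libraries were paired. With the replicate block, 3153 genes were called, 2814 of them among the 3715 called without it, and YTHDF1 was at 0.14 (limma with Benjamini-Hochberg adjustment, adjusted p = 0.0688). Of the members, YTHDF1 alone lost its call. In the block si-SCR replicate 3 has no partner, so the fold changes equal those with that library left out. YTHDF1 was called in that fit, also at 0.14 (limma with Benjamini-Hochberg adjustment, adjusted p = 0.0359).

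Among the members and the genes named from the lists, 4 fold changes that were not called turned sign when 1 library was left out. Their ranges were -0.065 to 0.028 for ELAVL1, -0.11 to 0.040 for LSM14A, -0.11 to 0.063 for HNRNPA2B1 and -0.042 to 0.070 for HNRNPD. The cause was not tested.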
